A study of Mus musculus with 35 samples.

Results

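In this series mouse embryonic fibroblasts were driven towards pluripotency with sets of retroviral factors, and the arm described here received Jdp2, Esrrb and Sall4 without Glis1. Its libraries from days 5, 6 and 7 in induction medium were compared with its libraries from days 1, 2 and 3, which takes 6 of the 35 libraries of the series and asks what moved in these cells once the first days had passed. The days 5 to 7 libraries (late, 3 libraries) and the days 1 to 3 libraries (early, 3 libraries) share, as far as the labels say, everything but time: E13.5 fibroblasts at passage 2, from crosses in which the father (CBA/CaJ × C57BL/6J) carried an Oct4-GFP transgene, infection for 48 hours, then iCD3 medium with a Rock inhibitor. For comparison, 3 further arms lacking Esrrb, Jdp2 or Sall4 were sampled on the same days, with Glis1 among the factors given, and an arm with all 4 factors (JEGS) was sampled on days 2, 4 and 6.

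The arm has 1 library per day and no repeat of any day, so the 3 days of a class stand in as replicates of it, and the labels do not say whether they are separate cultures. The p-values therefore measure only the spread between these libraries. A treatment label on every sample lists all 4 factors, which contradicts the sample names, and the names were followed. The labels describe 2 library kits and more than 1 sequencing run without saying which library each made, so a batch cannot be told apart from the days. The number in the name of the maternal 129 strain counts upward from sample to sample in the labels, so that strain is not stated here.

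Reprogramming asks a fibroblast to silence its matrix and mesenchymal genes and to switch on epithelial and pluripotency genes. Cells that sense foreign or misplaced nucleic acid through receptors such as Ifih1 and Ddx58 activate Irf3 and Irf7, secrete type I interferon and, through Jak1, Tyk2, Stat2 and Irf9, transcribe a broad antiviral programme. A complex that holds Stat2 and Irf9 binds a DNA element called the ISRE, and part of the programme, the MHC class I pathway, cuts proteins into peptides and displays them at the cell surface.

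Total expected counts were 2050315, 2622448 and 2289039 on days 5, 6 and 7, against 1976476, 1672376 and 1785349 on days 1, 2 and 3, so the late libraries were the deeper ones. Mitochondrially encoded genes took 4.67 to 6.0% of late counts and 4.02 to 6.07% of early counts. Glis1 stayed at 1.14 CPM or less (CPM, counts divided by library size after scaling by the trimmed mean of M values) in the late libraries and 1.17 CPM or less in the early ones. Jdp2 ranged from 1508 to 2650.3 CPM late and from 2769.9 to 3535 CPM early, Esrrb from 4950 to 8358 CPM late and from 5897 to 7791 CPM early, and Sall4 from 3140.5 to 4604 CPM late and from 4118 to 5572 CPM early. Of the factors given, none passed the test of late against early (log2 changes of -0.51 for Jdp2, -0.11 for Esrrb and -0.30 for Sall4), and their retroviral and endogenous transcripts are counted together. Of the markers that define fibroblasts, some were present at both stages and others nearly absent: the collagen gene Col1a1 had 296 to 325 CPM late and 225 to 881 CPM early, and Vim, a mesenchymal filament gene, had 648 to 857 CPM late and 554 to 1182 CPM early, while Dcn and Lum were at 5.0 CPM or less throughout.

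On the late days antiviral interferon-stimulated genes and MHC class I genes were higher than on the early days, and some stromal and matrix genes were lower. Of 14518 genes tested, 273 were higher late (1.88%) and 120 were lower (0.827%) at an adjusted p under 0.05 in edgeR's quasi-likelihood test, and all 393 had late and early values that did not overlap, as had 22.6% of all genes tested. A fold change below is the log2 of late over early from that test, with its standard error, and the median over all genes tested was 0.00. The interferon-stimulated genes had the most members past the test of any of the 50 lists examined, followed by MHC class I presentation, interferon sensing and the ATF4 stress response. The lists differ in size, and they and their members were chosen with earlier results of these data known. Their order is therefore only a description. How many genes passed turned on the libraries kept, with 22 higher and 13 lower without day 2, 30 and 12 without day 6, 33 and 12 without day 7, 129 and 41 without day 5, 425 and 232 without day 1, and 485 and 270 without day 3. Of the 273 higher genes 20 passed in all 6 of these fits, and of the 120 lower genes 9 did. The mitochondrial gene mt-Co3, whose nuclear copies can share its reads, was listed at 0 on days 0 to 3 and had 366, 293 and 600.4 CPM on days 5, 6 and 7, so its fitted change is no measure of size.

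**Figure D1:**
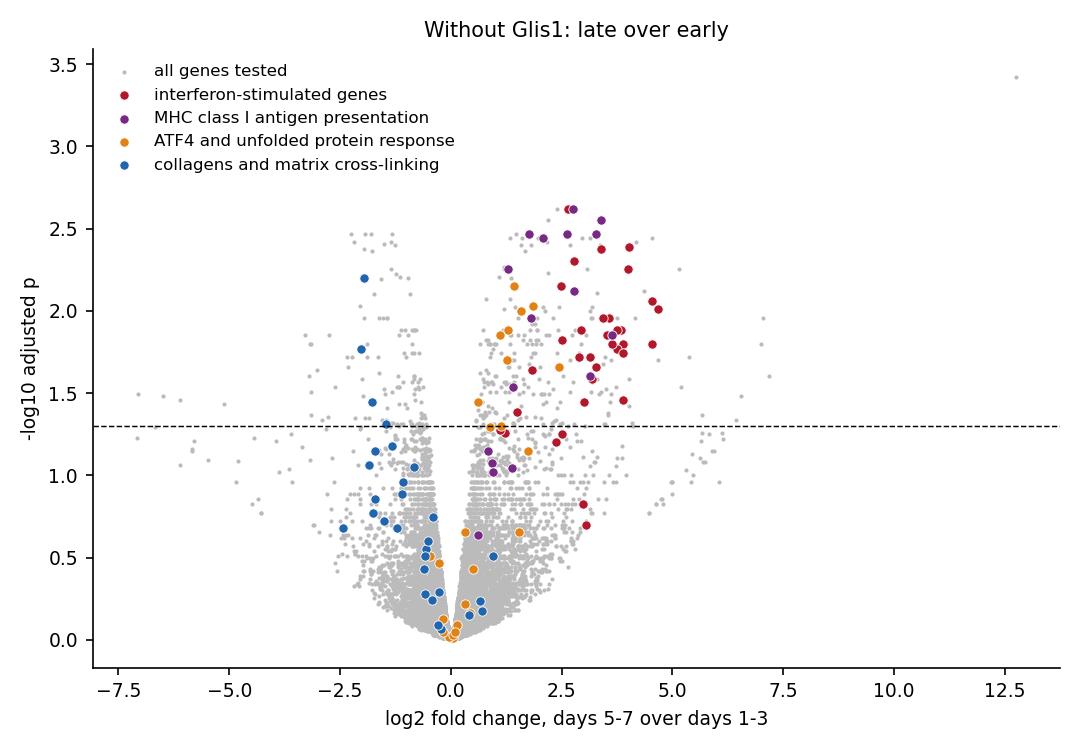
Each point is 1 of the 14518 genes tested, with its log2 fold change of days 5 to 7 over days 1 to 3 on the x axis and −log10 of its adjusted p on the y axis, and the dashed line marks an adjusted p of 0.05. The interferon-stimulated genes (28 of 34 above the line) and MHC class I genes (12 of 17) lie to the right, and the collagen and cross-linking genes mostly to the left, with 4 of 29 above the line; the point at 12.75 is mt-Co3.

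**Figure D2:**
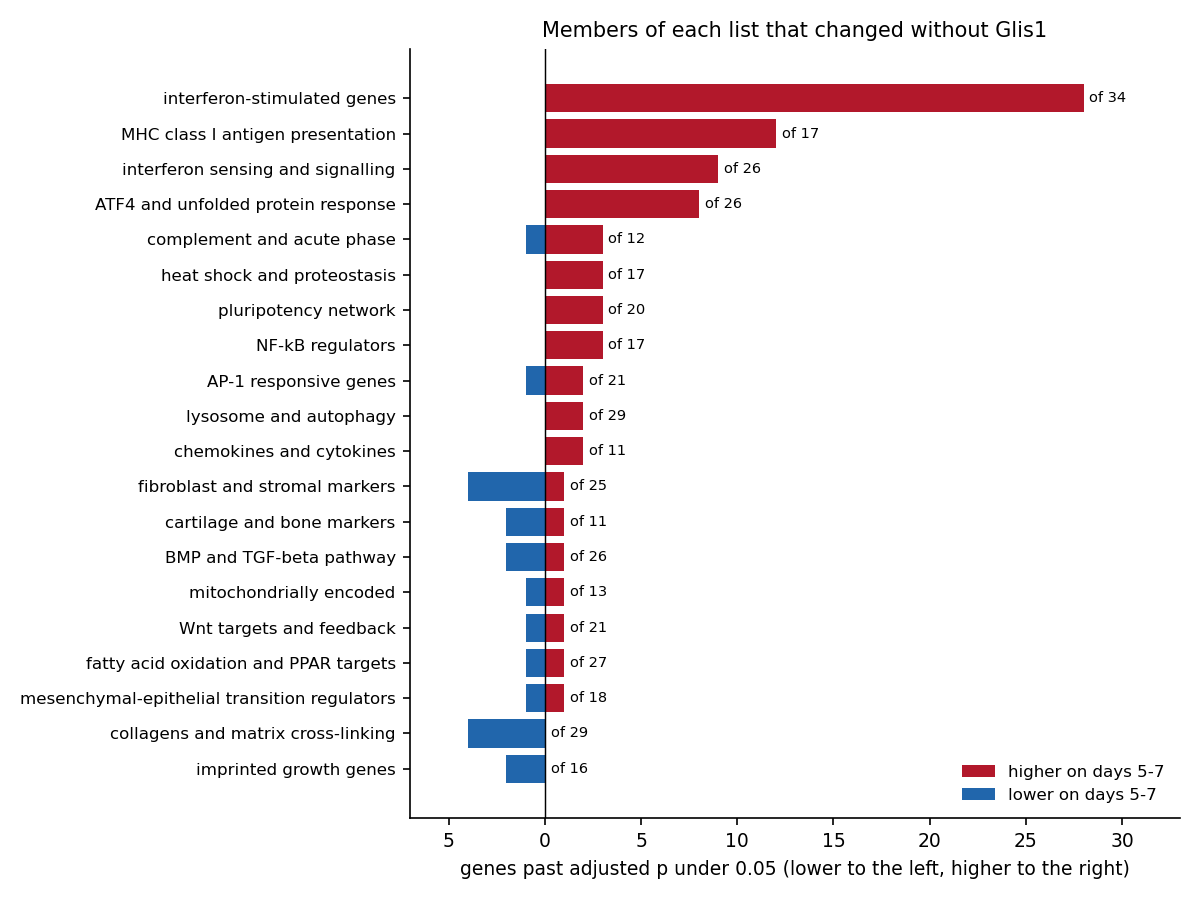
Bars give, for each list with at least 2 members past the test, how many members were higher (right, red) and lower (left, blue) on days 5 to 7 than on days 1 to 3, with the number tested beside each bar. The bar of interferon-stimulated genes reaches 28 of 34, against 1.88% of all genes tested, and the lists were chosen with earlier results of these data known.

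Interferon-stimulated genes, the antiviral effectors at the end of the pathway, rose together. Of 34 members tested, 28 were higher late and 0 were lower, and the median log2 change was 3.22. Every tested member had its 3 late values above its 3 early values, as had 12.7% of all genes tested. Summed over the list, the level was 2707, 4266 and 4596 CPM on days 5, 6 and 7, against 219, 473 and 948 CPM on days 1, 2 and 3. The late libraries all lie above the early ones, and within each class the later day was higher. The level on day 0 was 233 CPM, close to that of day 1.

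Oasl2, a member of the oligoadenylate synthetase family that responds to double-stranded RNA, had 228, 381 and 389.7 CPM late, against 1.5, 3.6 and 38.7 CPM early (log2 change 4.54 ± 0.67 SE, adjusted p = 0.0087). Ifit3, whose protein acts with Ifit1 on viral RNA, had 47.9, 108 and 149 CPM late, against 0, 1.2 and 11.2 CPM early (4.67 ± 0.71, adjusted p = 0.0097). Day 3 was the highest early library for both genes, and it remained below every late one. Bst2, which tethers budding virus particles to the cell membrane, had 532, 768 and 751 CPM late, against 43.0, 97.9 and 159 CPM early (2.78 ± 0.36, adjusted p = 0.005). Isg15, a ubiquitin-like modifier, had 64.7, 167 and 171 CPM late, against 0.5, 8.41 and 24.6 CPM early (3.63 ± 0.64, adjusted p = 0.016). Its removing enzyme Usp18, which also damps the interferon receptor, averaged 145 ± 46.2 CPM late and 11.2 ± 14.5 CPM early (SD, n = 3 each).

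Other risen members encode GTPases, RNA enzymes and secreted proteins. Mx2, of the antiviral Mx GTPase family and annotated as a polymorphic pseudogene in this reference, averaged 33.8 CPM late and 2.36 CPM early, and Rsad2, which makes a chain-terminating nucleotide, averaged 49.1 CPM late and 3.54 CPM early. The guanylate-binding and immunity-related GTPases Gbp2, Gbp3 and Irgm1 rose by 3.57, 3.39 and 2.51 on the log2 scale. Ifi44 had 147 to 236 CPM late and 1.0 to 22.3 CPM early, and Oas1a averaged 114 CPM late and 8.65 CPM early, and Lgals3bp, a secreted glycoprotein, 256 CPM late and 40.8 CPM early. The 6 members that missed the test were Ifit2 (log2 change 1.11, adjusted p = 0.053), Eif2ak2 (1.23, 0.055), Igtp (2.52, 0.056), Rtp4 (2.38, 0.063), Ifi27l2a (2.99, 0.15) and Mx1 (3.06, 0.2), of which Mx1 and Ifi27l2a were at 4.58 CPM or less in every late library. Ifi44l was listed but not tested, at 0.76 CPM or less. Members with close copies, among them Ifit3 and Ifit3b, Oas1a and Oas1g and the Gbp genes, share reads that the counting could split, so their separate levels are uncertain.

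The list's calls rested on particular libraries more than its direction did. Of the 28 risen genes, 28 passed without day 1 or without day 3, 25 without day 5, 5 without day 6, 5 without day 7 and 1 without day 2, and Lgals3bp passed in all 6 of these fits. The median log2 change stayed between 2.78, without day 1, and 4.43, without day 3. With the DESeq2 Wald test 20 of the 28 genes passed, and with limma on log2(TPM + 1) 11 did.

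The promoters of these genes are shown because the programme is defined by a DNA element, and RefSeq gives the bases before each start in build GRCm38.p6. The letters searched were GAAANNGAAA, the core of the ISRE, on both strands of 300-base windows that run from 250 bases before to 50 bases after a start. A window was counted once however many matches it held, and matches to different motifs may overlap. The core was found for 13 of the 22 risen interferon-stimulated genes with a window (59.1%) and for 2 of 3 list members that missed the test. Over all higher genes it was found for 41 of 193 (21.2%), over lower genes for 4 of 83 (4.82%), over genes tested for 387 of 10726 (3.61%), and in 1131 of all 32851 windows (3.44%). The following stretches of 60 bases, 5′ to 3′ on the strand of the gene, are cut from these windows at differing distances from the start. Counted from the start, the first match begins at base -20 in Oas1a, -30 in Irgm1, -78 in Isg15 and -104 in Ifit1. It begins at -120 in Rsad2, -139 in B2m, -191 in H2-T22 and -222 in Stat2. The core is in capitals, printed as its reverse complement where it lies on the other strand. Runs of capitals longer than 10 bases are overlapping matches. Only windows with a match are printed, and those of genes in the sensing and MHC class I lists stand at the end. Among sensing genes with a window, the core was found for 2 of 5 risen genes (40%) and 3 of 16 that missed the test (18.8%). Among MHC class I genes it was found for 3 of 11 risen genes (27.3%) and 2 of 4 that missed the test (50%).
Isg15, chr4:156200862-156200921, minus strand: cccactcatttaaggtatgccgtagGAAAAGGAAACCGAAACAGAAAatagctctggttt
Ifit1, chr19:34640760-34640819, plus strand: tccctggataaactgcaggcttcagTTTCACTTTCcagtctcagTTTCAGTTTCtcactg
Oas1a, chr5:120907526-120907585, minus strand: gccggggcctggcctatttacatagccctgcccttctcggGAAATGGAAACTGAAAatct
Rsad2, chr12:26456538-26456597, minus strand: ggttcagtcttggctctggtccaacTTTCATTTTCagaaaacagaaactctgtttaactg
Irgm1, chr11:48871421-48871480, minus strand: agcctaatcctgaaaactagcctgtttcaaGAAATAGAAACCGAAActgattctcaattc
Stat2, chr10:128270251-128270310, plus strand: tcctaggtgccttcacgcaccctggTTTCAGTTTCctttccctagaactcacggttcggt
H2-T22, chr17:36042899-36042958, minus strand: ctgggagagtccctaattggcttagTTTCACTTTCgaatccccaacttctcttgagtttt
B2m, chr2:122147523-122147582, plus strand: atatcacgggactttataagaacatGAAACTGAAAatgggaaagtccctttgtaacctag
The GAS letters TTCNNNGAA, another element of interferon signalling, were found for 17 of 193 higher genes (8.81%), against 8.05% of genes tested. A match is a description of these letters and not a measured site.

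Upstream of the effectors, the transcription factor genes Irf7, Stat2 and Irf9 rose. The transcription factor genes Irf1 and Irf3, the receptor genes Ifnar1 and Ifnar2 and the kinase gene Jak1 did not pass the test. Of 26 sensing and signalling genes tested, 9 were higher late and 0 were lower, with a median log2 change of 1.21. Irf7, which amplifies interferon transcription, had 158, 277 and 367 CPM late, against 3.5, 13.2 and 28.8 CPM early (4.17 ± 0.50, adjusted p = 0.0038). Stat2 had 303, 298 and 319 CPM late, against 34.0, 81.1 and 127 CPM early (1.93 ± 0.34, adjusted p = 0.016). For both genes the late and early libraries were apart, and Stat2 was level over the late days while Irf7 was highest on day 7.

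The RNA sensor genes Ifih1 and Dhx58 rose by 2.70 and 3.60 on the log2 scale, the nucleic acid sensor gene Zbp1 reached 16.2 CPM on day 7, against 1 count in the early libraries together, a count ratio of 57.0 with a 95% counting interval of 9.91 to 2281, and the RNA editing gene Adar and the DNA sensor family gene Ifi204 rose by 1.53 and 2.44. Irf9, the partner of Stat2, rose by 1.25. The sensor Ddx58 (log2 change 1.40, adjusted p = 0.069), Irf1 (1.11, 0.082) and Tlr3 (0.82, 0.16) missed the test. The receptor genes Ifnar1 (-0.13) and Ifnar2 (0.26), the kinase gene Jak1 (-0.02), the sensor adaptor Mavs (0.27) and Irf3 (-0.03) had adjusted p-values of 0.54 to 0.97. The type I interferon gene Ifnb1 was at the edge of detection, with 0.76 and 0.43 CPM on days 6 and 7, 3 counts in all, and 0 in the other libraries. Other interferon genes are not reported here. Of the 9 risen genes, 9 passed without day 1 or day 3, 4 without day 5, 1 without day 6 or day 7, and 0 without day 2.

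MHC class I genes rose together as well, and 6 of them passed whichever library was left out. Of 17 genes tested, 12 were higher late and 0 were lower, and the median log2 change was 1.80. Late values lay above all early ones in 16 of the 17, as they did in 12.7% of all genes tested. H2-K1, a classical class I heavy chain, had 657, 899 and 994 CPM late, against 89.5, 111 and 212 CPM early (2.63 ± 0.29, adjusted p = 0.0034). B2m, the light chain that every class I molecule needs, had 626, 769.6 and 1038 CPM late, against 231, 214 and 269 CPM early (1.76 ± 0.19, adjusted p = 0.0034). The early B2m values stayed within a narrow range, and each late library was above them by more than that range.

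Genes at several steps of the pathway were among those that rose. The immunoproteasome subunit genes Psmb8 and Psmb9, which cut peptides, rose by 3.27 and 3.63, the peptide transporter genes Tap1 and Tap2 by 1.41 and 1.80, and Tapbp, which bridges transporter and heavy chain, by 1.28. Among heavy chains H2-D1 rose by 2.75, H2-Q4 by 3.39, H2-Q7 by 3.13, H2-T22 by 2.09 and H2-T23 by 2.78, and since these genes are near copies of each other their separate levels are uncertain. The proteasome activator genes Psme1 and Psme2, the trimming enzyme gene Erap1 and the class I activator Nlrc5 had log2 changes of 0.83 to 1.39 with adjusted p-values of 0.071 to 0.095, and Psmb10 had 0.61 and 0.23. The 6 genes that passed with any library left out were H2-K1, H2-D1, H2-Q4, H2-T22, B2m and Psmb8. Of the 12 risen genes, 6 passed without day 2 or day 6, 7 without day 7 and 10 without day 5.

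A few inflammatory genes outside the interferon lists rose. Of 11 chemokine and cytokine genes tested, 2 were higher, Ccl5 (log2 change 3.72, adjusted p = 0.029) and Cxcl16 (1.03, 0.025), and Ccl8, which was on no list, rose by 3.99. Cxcl10, a chemokine typical of interferon responses, had 0.51, 3.82 and 4.68 CPM late and 0 early and was below the filter of the test. Of 17 NF-kB regulators tested, 3 were higher: Relb, a subunit of the non-canonical complex, had 64.7, 59.5 and 67.2 CPM late, against 19, 18 and 25.8 CPM early (1.60 ± 0.19, adjusted p = 0.0036), with Tnfaip3 and Bcl3, feedback regulators, at 1.96 and 0.75. Of 12 complement and acute phase genes tested, 3 were higher and 1 was lower. Lcn2, an iron-scavenger carrier, had 124, 140.04 and 201 CPM late, against 9.0, 20.4 and 31.1 CPM early (2.96 ± 0.34, adjusted p = 0.0036). Serping1, the C1 inhibitor, rose by 2.94, complement C2 rose by 3.46, and the C1q-related gene C1qtnf1 fell by 1.64. Relb and Lcn2 passed with any library left out. Of the 3 NF-kB genes 1 passed without day 2, 5, 6 or 7, of the 3 risen complement genes 1 passed without day 2, 6 or 7 and 2 without day 3 or 5, and of the 2 chemokines 0 passed without day 2, 6 or 7 and 1 without day 5. C1qtnf1 missed the test without day 2, 5, 6 or 7, and Ccl8 without day 2 or day 6.

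Markers of immune cells were low. The 9 macrophage markers summed to 28 to 31.3 CPM late and 17.0 to 27.6 CPM early, so that every late library was above every early one, and their part in the interferon and MHC class I results was not tested. Of the 4 that could be tested 0 passed, and 1 had all late values above the early ones, as had 12.7% of all genes tested. Ptprc and Itgam, which define the blood lineage and myeloid cells, were at 0 in every late library. The late sum therefore came from other markers of the list, and it does not show that myeloid cells were absent. The markers of T, NK and dendritic cells summed to 0.763 CPM or less and 0 of 8 could be tested. In bulk RNA, a change in the number of cells of a type and a change in RNA per cell cannot be told apart.

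**Figure D3:**
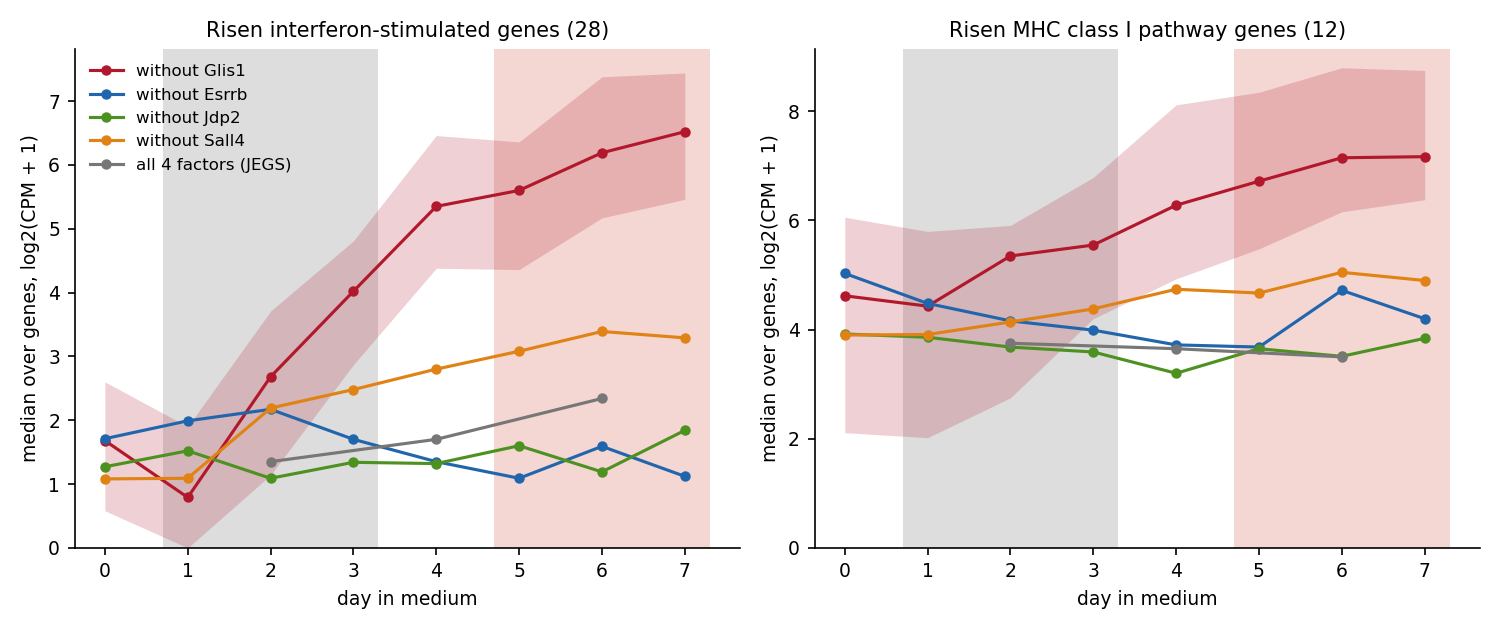
Lines give the median log2(CPM + 1) over the 28 interferon-stimulated genes (left) and the 12 MHC class I pathway genes (right) that were higher late without Glis1, by day in medium (x axis), for each arm, with the band between the quartiles over genes for the arm without Glis1. Grey shading marks days 1 to 3 and red shading days 5 to 7; genes were chosen on the red line, which climbs from day 1 to day 7 at left while no other arm exceeds 3.39.

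The day 4 library, which was not part of the test of late against early, placed most of the change before day 5. It entered only alternative fits, the slope over the 8 days and days 4 to 7 against days 0 to 3. The median log2(CPM + 1) of the 28 risen interferon-stimulated genes was 1.68, 0.79, 2.68, 4.02, 5.35, 5.60, 6.19 and 6.52 on days 0 to 7. On day 4 all 28 were above each early library, and they had covered a median of 82.1% of their change between the early and late means. Over all 273 higher genes the median was 72.8%, and 264 were above each early library on day 4, and for the 120 lower genes it was 69.6%, and 116 were below each early library. These genes were chosen on the days on either side of day 4, and over all genes tested 26.2% were above and 24.1% below every early library on that day. All 28 interferon-stimulated genes were also higher on day 3 than on day 1, and higher on day 7 than on day 5, so within each class the days differ in the direction of the test.

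Some stromal and matrix genes fell. Of 25 fibroblast and stromal markers tested, 4 were lower and 1 was higher (median log2 change -0.55), and of 29 collagens and cross-linking genes tested, 4 were lower and 0 were higher (median -0.83). Postn, which encodes the matrix protein periostin, had 60.1, 74.8 and 55.3 CPM late, against 319.6, 265 and 156 CPM early (-1.97 ± 0.25, adjusted p = 0.0042). Prrx1, a homeobox regulator of limb mesenchyme, had 173, 171 and 121 CPM late, against 506, 456 and 352 CPM early (-1.51 ± 0.18, adjusted p = 0.0039). Col12a1, a collagen that binds to fibrils, had 148, 125 and 100.4 CPM late, against 823, 437 and 247 CPM early (-2.03 ± 0.36, adjusted p = 0.017). In all of these genes the lowest early library was day 3, and it was still above the highest late one.

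Col6a3, a microfibril collagen, fell by 1.97, Col11a1 by 1.46, the cross-linking enzyme gene Loxl1 by 1.78, the mesenchymal regulator gene Twist2 by 1.88, and Fbln1, a basement membrane protein gene, by 0.73. Bgn, a small matrix proteoglycan gene that was on no list, averaged 363 CPM late and 1442 CPM early. The summed level of the collagen list was 4089 to 4604 CPM late, against 14237 CPM on day 1 and 4892 CPM on day 3, and it was 31154 CPM on day 0. Col1a1 had 4847 CPM on day 0 and 881, 289 and 225 CPM on days 1 to 3, and its log2 change of -0.58 did not pass (adjusted p = 0.53), nor did that of Col1a2 (-1.72, 0.14) or Col3a1 (-0.52, 0.25). The stromal marker that rose was Ly6a, at 26.5, 37.8 and 70.6 CPM late, against 4.0, 4.2 and 4.69 CPM early (3.37 ± 0.42, adjusted p = 0.004), a gene that interferon also induces in other mouse cells and that has close copies. Of the 4 fallen fibroblast markers 2 passed without day 2, 5 or 6 and 1, Prrx1, without day 7, and Ly6a missed the test without day 2. Of the 4 collagen genes 3 passed without day 1, 1 without day 2 or day 5 and 0 without day 6 or day 7, and Bgn missed the test without day 2, 5, 6 or 7.

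**Figure D4:**
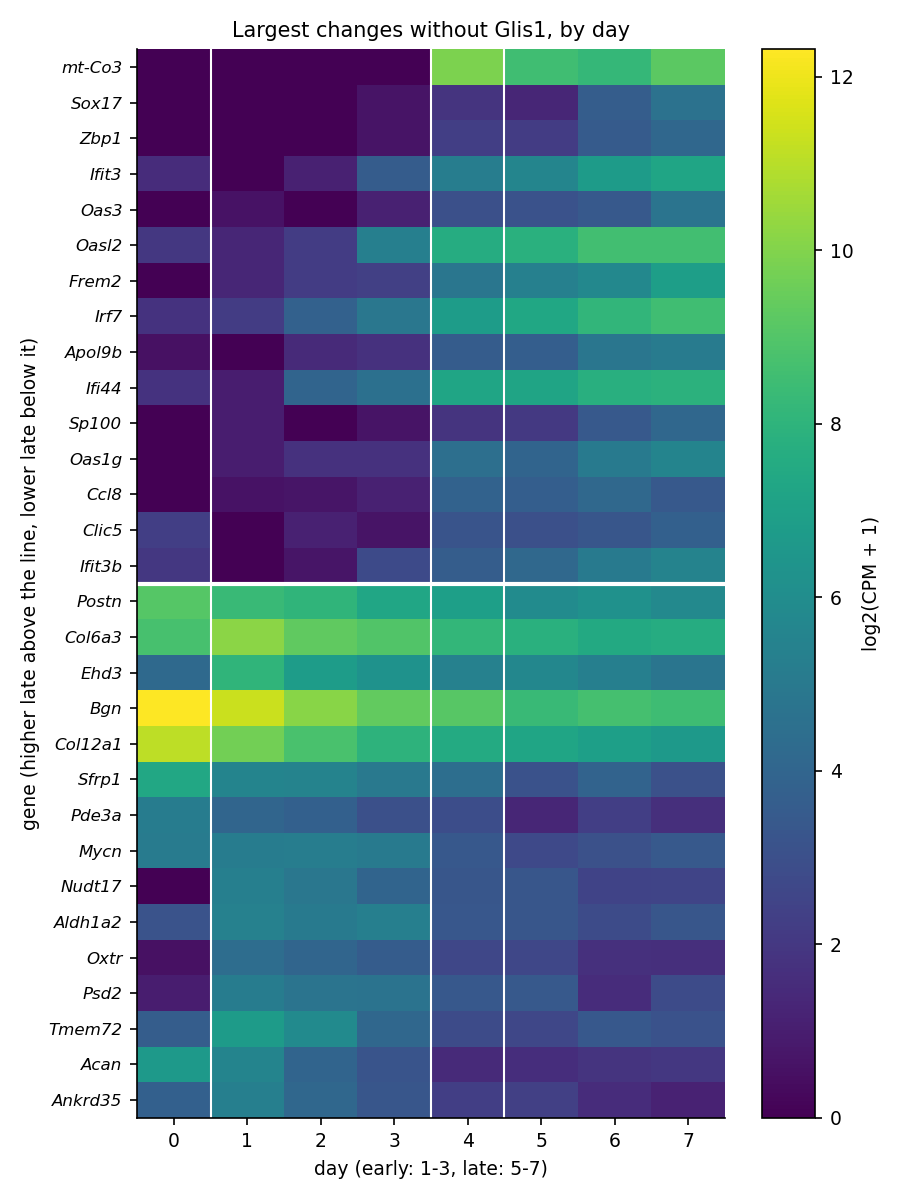
Rows are the 15 genes with the largest rise (top) and the 15 with the largest fall (bottom) that the naming rule selects, columns are days 0 to 7 of the arm without Glis1, and colour is log2(CPM + 1). White lines set off the early days 1 to 3 and the late days 5 to 7, and on day 4 116 of all 120 lower genes were already below every early library, against 24.1% of all genes tested.

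Among the genes that fell whichever library was left out were regulators of development. Mycn, a Myc family transcription factor, had 5.6, 7.25 and 9.79 CPM late, against 35, 36 and 32.3 CPM early (-2.18 ± 0.26, adjusted p = 0.0038). Aldh1a2, which makes retinoic acid, had 8.66, 6.11 and 8.94 CPM late, against 41.0, 31.8 and 39.3 CPM early (-2.25 ± 0.25, adjusted p = 0.0034), and Cyp26b1, which degrades it, had 16.3, 17.2 and 15.3 CPM late, against 75.0, 62.5 and 49.3 CPM early (-1.94 ± 0.21, adjusted p = 0.0034; named after its values were seen). For all of these the classes were several-fold apart with little spread within them. Notch3, a receptor of mural cells, had 54.5, 59.9 and 34.9 CPM late, against 145, 215 and 148 CPM early (-1.77 ± 0.23, adjusted p = 0.0043), and Tgfbi, a matrix protein that TGF-beta induces, had 70.3, 57.2 and 41.7 CPM late, against 181, 228 and 178 CPM early (-1.81 ± 0.19, adjusted p = 0.0034). Igfbp5, an insulin-like growth factor binding protein gene, had 190.5, 199.6 and 208 CPM late, against 482, 613 and 414 CPM early (-1.34 ± 0.16, adjusted p = 0.0038). These 6 genes are 6 of the 9 that fell in all of the fits with 1 library left out.

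The cartilage proteoglycan gene Acan fell by 3.16 and Matn4 by 1.54, while the alkaline phosphatase gene Alpl rose by 0.92, among 11 cartilage and bone markers tested. The Wnt antagonist gene Sfrp1 fell by 2.04 and the Wnt target Sp5 rose by 2.03. The BMP antagonist gene Grem1 had 102, 90.8 and 86.8 CPM late, against 35, 33.6 and 41.1 CPM early (1.34 ± 0.16, adjusted p = 0.0036), and passed with any library left out. Of the imprinted growth genes, Igf2 and Grb10 fell by 1.31 and 0.87, with 14 of 16 tested not past the test. Acan, Matn4, Alpl, Sp5, Igf2 and Grb10 each missed the test without day 2, 6 or 7, Acan, Alpl, Igf2 and Grb10 also without day 5, and Sfrp1 without day 2 or day 7. Frem2, an extracellular matrix protein gene of epithelia, had 40.2, 53 and 119.6 CPM late, against 1.5, 3.6 and 4.11 CPM early (4.54 ± 0.53, adjusted p = 0.0036), and passed with any library left out.

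Pluripotency genes showed small rises on a low base. Of 20 tested, 3 were higher late and 0 were lower, with a median log2 change of 0.64. Klf4 had 28, 24.8 and 38.7 CPM late, against 11.5, 7.81 and 9.39 CPM early (1.65 ± 0.28, adjusted p = 0.014), and Klf5 averaged 63.6 CPM late and 34.4 CPM early. Klf4 is also a fibroblast gene and stood at 64.1 CPM on day 0, above every later library, so its slope over all 8 days is -0.03 per day. Pou5f1, the gene of the Oct4 reporter, had 1.02, 6.11 and 11.1 CPM late, against 2.5, 3.0 and 0.59 CPM early, and the classes overlap (1.56, adjusted p = 0.37). Sox2 had 2.55, 3.82 and 8.51 CPM late, against 0.5, 0.6 and 1.76 CPM early (2.34, adjusted p = 0.15), Lin28a reached 14 CPM on day 7 (3.95, adjusted p = 0.1), and Nanog was at 2.29 CPM or less. Of the 3 risen genes, 0 passed without day 2, 6 or 7 and 2 without day 5.

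Among epithelial genes 1 of 25 tested rose, Krt18, a keratin of simple epithelia, with 135, 144 and 146 CPM late, against 54.0, 55.9 and 76.9 CPM early (1.19 ± 0.16, adjusted p = 0.0056), a call lost without day 2, 6 or 7. The adhesion gene Cdh1 had 43.3, 46.9 and 70.2 CPM late, against 16.0, 9.61 and 34.0 CPM early (1.43, adjusted p = 0.071). Of the 25 genes, 12 had all late values above the early ones, as had 12.7% of all genes tested. Bmp7, which promotes the epithelial state, rose by 1.79, and the call was lost without day 2, 6 or 7. Sox17, an endoderm regulator, had 1.53, 11.5 and 23.8 CPM late and 1 count in the early libraries together, a count ratio of 69.5 with a 95% counting interval of 12.2 to 2774, and missed the test without day 2 or, below the filter, without any late day.

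Genes of the amino acid and unfolded protein response rose in part. Of 26 tested, 8 were higher late and 0 were lower, with a median log2 change of 0.46. Ddit3, which encodes the stress factor CHOP, had 35.1, 55.7 and 52.3 CPM late, against 15.5, 13.2 and 18.8 CPM early (1.59 ± 0.24, adjusted p = 0.010). Atf5 had 70.8, 97.7 and 96.2 CPM late, against 38.5, 25.8 and 33.4 CPM early (1.43 ± 0.20, adjusted p = 0.0071). Nupr1, a stress-induced chromatin protein gene, had 48.9, 58.8 and 59.99 CPM late, against 8.5, 16.2 and 21.7 CPM early (1.86 ± 0.28, adjusted p = 0.0094). In each of these genes the late libraries were above all early ones. Atf4 itself rose by 0.62, Trib3 by 2.44, the phosphatase subunit gene Ppp1r15a by 1.28, asparagine synthetase Asns by 1.11 and the folate enzyme gene Mthfd2 by 1.27. The endoplasmic reticulum chaperones did not move past the test: Hspa5 had a log2 change of 0.04, Calr of 0.01 and Hsp90b1 of -0.17. Of the 8 genes 0 passed without day 2, 6 or 7, 5 without day 5, and 1 when days 4 to 7 were set against days 0 to 3. On day 0, 4 of the 8 were higher than in every late library, Atf4 at 246 CPM and Atf5 at 105 CPM among them.

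Among the same promoter windows, the letters TGATGNAA, the C/EBP and ATF composite element that ATF4 binds, were found for 3 of the 8 risen genes (37.5%), 5 of 17 members that missed the test (29.4%), 2.65% of genes tested and 3.97% of all windows. Both windows below are RefSeq, GRCm38.p6, 5′ to 3′ on the strand of the gene, with the match in capitals, printed for Nupr1 as its reverse complement because it lies on the other strand.
Asns, chr6:7693210-7693269, minus strand: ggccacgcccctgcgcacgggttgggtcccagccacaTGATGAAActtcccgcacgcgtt
Nupr1, chr7:126625546-126625605, minus strand: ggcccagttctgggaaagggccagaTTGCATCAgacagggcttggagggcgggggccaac

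Small heat shock and lysosomal genes added a few calls. Cryab, Hspb1 and Hspb8, small chaperone genes, rose by 1.43, 1.0 and 0.82 among 17 proteostasis genes tested, with 0 of them past the test without day 2, 6 or 7 and 2 without day 5. Ctsb, a lysosomal protease gene, averaged 1429 ± 28.9 CPM late and 788 ± 176 CPM early (SD, n = 3 each; 0.85, adjusted p = 0.024), and Atp6v0d2 rose by 1.40, among 29 lysosome and autophagy genes. Of those 29 genes, 14 had all late values above the early ones, as had 12.7% of all genes tested. Their summed level was 12096 to 12191 CPM late and 7448 to 9801 CPM early. Mlkl, the effector of necroptosis, had 41.3, 46.9 and 51.9 CPM late, against 17.5, 20.4 and 17.0 CPM early (1.34 ± 0.20, adjusted p = 0.0085), and Ccnd1 and Dusp4, which respond to growth signals, rose by 0.80 and 1.09. Ctsb, Atp6v0d2, Mlkl, Ccnd1 and Dusp4 each missed the test without day 2, 6 or 7, Ctsb and Atp6v0d2 also without day 5, and Atp6v0d2 without day 3.

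Large parts of the transcriptome showed no call. Of 30 mitosis genes 0 passed, with a median log2 change of -0.66 and a summed level of 599 to 1193 CPM late and 898 to 1849 CPM early (2564 CPM on day 0). Cdc20, which activates exit from mitosis, had 39.2, 41.6 and 58.3 CPM late, against 169.5, 73.9 and 73.3 CPM early (-1.20, adjusted p = 0.083). Of 30 DNA replication genes 1 was lower, Ccne1 (-0.88), which missed the test without day 2, 6 or 7. Of 27 p53 targets 0 passed (median -0.22), as did 0 of 26 cytosolic ribosomal protein genes (-0.16), 0 of 30 nuclear oxidative phosphorylation genes (-0.15), 0 of 26 cholesterol and fatty acid synthesis genes (0.12) and 0 of 23 contractile genes (-0.27). Late values all lay below the early ones in 10 of the 26 ribosomal protein genes and 8 of the 27 p53 targets. They all lay above in 0 of either list. The summed ribosomal protein level was 18399 to 20749 CPM late and 21410 to 22325 CPM early. Of 31 Hox genes, 1 was lower, Hoxc10 (-1.08, missed without day 2, 5, 6 or 7), with a median of -0.74 and 16 whose late values all lay below the early ones, as did those of 9.94% of all genes tested. A gene that missed the threshold is not shown to be unchanged: 2383 genes had an unadjusted p under 0.05, against the 393 that passed after adjustment.

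The change over time was then compared with that of the other leave-out arms, as the change without Glis1 minus the mean change without Esrrb, Jdp2 and Sall4, in a fit of 24 libraries, 6 of which are those of the test above, so the results are not independent of it. Of 17679 genes tested, 532 had a more positive change without Glis1 (3.01%) and 270 a more negative one (1.53%). These counts fell to 295 and 144 without the day 1 library of the arm, 255 and 134 without day 2, 287 and 118 without day 6 and 301 and 167 without day 7, and 437 genes were more negative without the day 5 library of the arm lacking Esrrb. Interferon-stimulated genes made up 24 of the 532, out of 34 tested, with 0 among the 270 and a median difference of 2.90, and MHC class I genes 12 of 17, with a median difference of 1.97. The 3 arms differed among themselves: in their own tests of late against early, 3.02% of genes were higher and 4.11% lower without Esrrb, 3.87% and 3.86% without Jdp2, and 1.04% and 0.285% without Sall4. Of interferon-stimulated genes, 0 of 26 tested were higher without Esrrb (median log2 change -0.76) and 0 of 23 without Jdp2 (0.23), while 8 of 28 were higher without Sall4 (1.29). Set against the arm without Sall4 alone, 6 of 34 interferon-stimulated genes and 6 of 17 MHC class I genes had a more positive change without Glis1, and with 1 late change shared by the other arms, a fit chosen after seeing the data, 10 and 8 did. Leaving out the day 2 library of the arm without Glis1 brought the 24 to 15, and leaving out its day 1 library brought the 12 to 8. For 6 of the 34, among them Oas3 and Iigp1, an arm and stage held no count. The size of their difference could not be estimated with a term for each arm, though they were kept among the genes tested. Of 29 lysosome and autophagy genes, 10 had a more positive change without Glis1 and 0 a more negative one. With the shared late change, 2 had a more positive change. In the arms' own tests 7 of 28 were lower without Esrrb, 3 of 28 without Jdp2 and 0 of 28 without Sall4.

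Bst2 had 37.2, 103 and 95.3 CPM late, against 81.7, 82.1 and 58.0 CPM early without Esrrb, 29.5, 45.0 and 101 CPM late, against 43.1, 28.6 and 35.6 CPM early without Jdp2, and 97.9, 94.7 and 95.3 CPM late, against 38.9, 53.6 and 61.4 CPM early without Sall4. Every late library without Glis1, at 532 CPM or more, was above all of these, and the difference of changes was 2.33 ± 0.37 (adjusted p = 0.00043). B2m had 72.2, 103 and 101 CPM late, against 129.7, 129 and 95.2 CPM early without Esrrb, 182, 179 and 167 CPM late, against 176, 202 and 257 CPM early without Jdp2, and 440.1, 502 and 519 CPM late, against 384, 435 and 375 CPM early without Sall4. The arm without Sall4 therefore held more B2m than the arm without Glis1 on the early days and less on the late ones, and the difference of changes was 1.87 ± 0.19 (adjusted p = 4.6e-06).

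**Figure D5:**
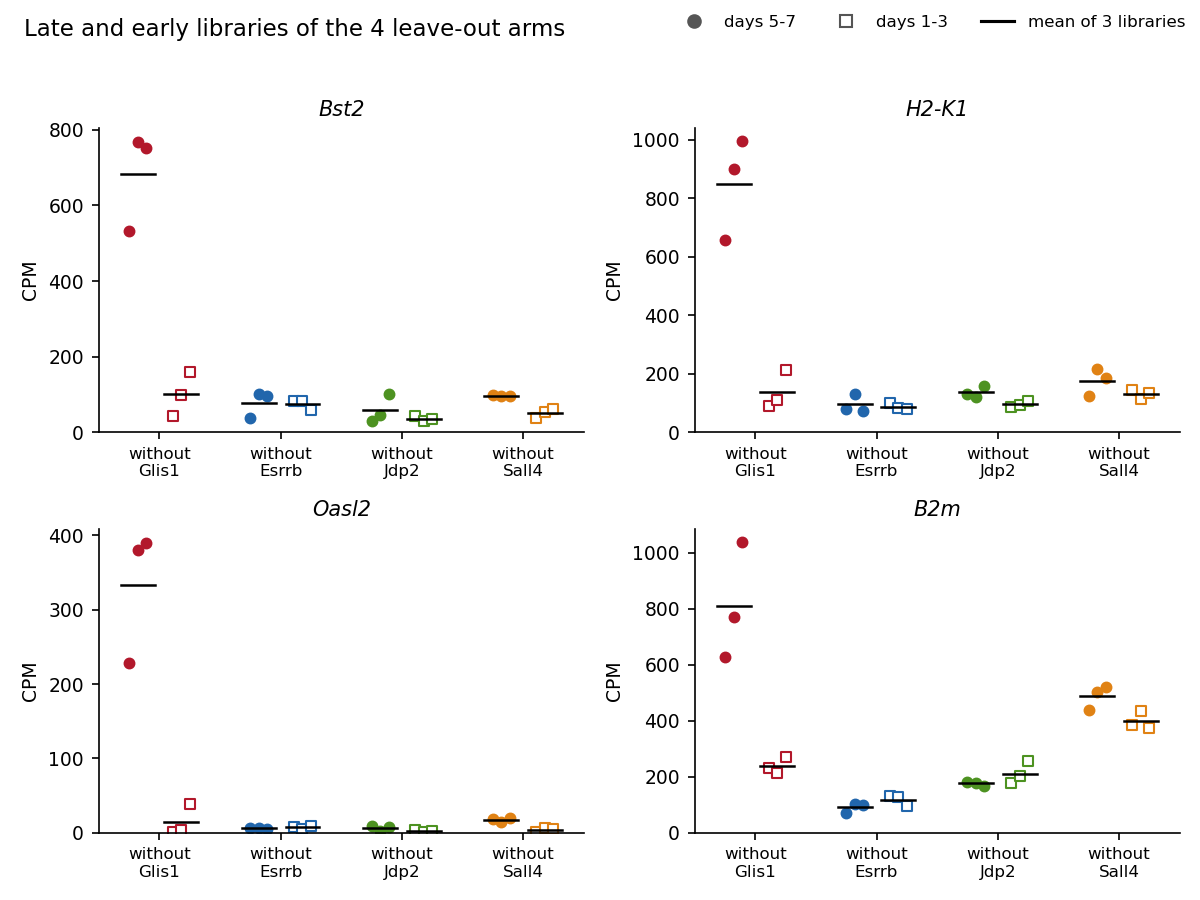
Points are CPM of single libraries for 4 genes of the interferon and MHC class I lists, with days 5 to 7 as filled circles left of days 1 to 3 as open squares in each leave-out arm, and bars at the mean of 3 libraries. In every panel the late libraries without Glis1 are the highest, with H2-K1 at 657 to 994 CPM.

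Outside the interferon lists, several genes went opposite ways in different arms. Notch3 fell without Glis1 and rose by 2.20 without Esrrb and by 2.19 without Jdp2, and averaged 46.1 CPM late and 22.2 CPM early without Sall4 (1.04), for a difference of -3.51 ± 0.35 (adjusted p = 4.6e-06). Tgfbi averaged 16.5 CPM late and 6.78 CPM early without Esrrb, 34.6 CPM late and 14.3 CPM early without Jdp2, and 16.6 CPM late and 9.12 CPM early without Sall4, for a difference of -2.83 ± 0.40 (adjusted p = 0.00014). On the early days Tgfbi was at 178 CPM or more in each library without Glis1, above each of these means. Grem1 rose without Glis1 and averaged 10.3 CPM late and 36.1 CPM early without Esrrb, 19 CPM late and 55.5 CPM early without Jdp2, and 116 CPM late and 122 CPM early without Sall4, for a difference of 2.47 ± 0.25 (adjusted p = 4.6e-06). Of the falling stromal genes, Postn (-1.52, adjusted p = 0.00027), Prrx1 (-1.09, 0.0017) and Col12a1 (-1.15, 0.0037) fell more than in the mean of the other arms. For other fallen genes the difference did not pass: Fbln1 (-0.58, adjusted p = 0.059), Twist2 (-0.75, 0.13), Bgn (-0.47, 0.26), Col6a3 (-0.60, 0.3) and Loxl1 (-0.53, 0.54). In their own tests 7 of 27 collagen and cross-linking genes were lower without Esrrb, 5 of 26 without Jdp2 and 0 of 29 without Sall4. The rise of Frem2 did not differ past the test (1.75, adjusted p = 0.067): it also rose without Esrrb, by 2.33, and without Jdp2, by 3.29.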

How the data were processed

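The deposited tables, 1 per library, give for each gene an expected count, a TPM value (transcripts scaled to a fixed total per library) and lengths, per the file headers. Per the submitters' processing notes, the tools were RSEM, Bowtie2 and bcl2fastq and the mouse build was mm10; their versions are not given in the sources used here. The authors' expected counts split reads among near-identical genes, so the levels of close copies depend on that split. They were rounded to whole numbers. Gene IDs, 54752 in all, were matched to symbols through a reference table (54723 matched). 

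Libraries were assigned by sample name. Genes that reached 1 CPM in 3 or more libraries of a fit were tested with edgeR 4.0.16 (TMM scaling, quasi-likelihood F test, Benjamini-Hochberg adjustment over all genes tested, threshold 0.05) in R 4.3.3, late against early within the arm, without covariates. The difference from the other arms used 24 libraries with a term for each arm and stage and a factor for day. Alternatives used DESeq2 1.42.0, DESeq2 size factors, limma 3.58.1 on log2(TPM + 1) of the deposited TPM values, other libraries or classes, thinned counts and no filter. The fits were tested on simulated data with known changes. Of 100 log2 changes of 1 in size, 50 were recovered late against early and 40 in the difference from the other arms. Of 100 log2 changes of 2 in size, 94 were recovered in each, with 4 false calls in each. The simulated days of a class did not drift, as the days here did. Tables and figures were made with Python 3.11.15, pandas 2.3.3 and matplotlib 3.10.9.

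The members and the 50 gene lists were chosen with earlier results of these data known. Genes were named by rule: the 15 largest changes in each direction at a mean of 5 CPM or more, the 8 largest differences from the other arms in each direction, and up to 4 called members of each list and direction. Some genes that the rule selects are not reported here. Further list members were named after their values were seen. Count intervals are exact at 95% and cover counting error only, and the floor behind a count of 0 is 3 counts. Depth ranged from 1672376 to 2622448 expected counts over the 6 libraries.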

Additional observations from a re-analysis of the deposited data

Results flagged for a closer look

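The change between early and late days was set apart from that of the other arms by a test of the difference itself in 532 genes with a more positive change without Glis1 and 270 with a more negative one. Of 100 named genes, 57 passed that test. Of all genes called late against early, 153 of 273 higher (56%) and 66 of 120 lower (55%) passed it in the same direction. Up to 8 named genes in each direction were chosen because they passed it, and all 100 were called on libraries that it reuses. The 57 is therefore no result about the named genes. Of the 57, 31 also passed when the other arms were given 1 shared late change, a fit chosen after seeing the data. The values below are the change without Glis1 minus the mean change without Esrrb, Jdp2 and Sall4, on the log2 scale, and causes were not tested.

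Of the 31 genes, 16 had a more positive change. The interferon and MHC class I genes among them were Ifit3 (4.99), Oas1a (4.28), Ifi211 (4.12), Irf7 (4.07), Ifi44 (3.88), Oasl2 (3.67), Psmb8 (2.75), Ifih1 (2.63) and H2-Q4 (1.97). The others were the iron-scavenger gene Lcn2 (3.95), the BMP antagonist gene Grem1 (2.47), the necroptosis gene Mlkl (1.87), Bmp7 (1.76), Krt18 (1.74), Dusp4 (1.43) and Atf5 (1.22).

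The 15 genes with a more negative change were Notch3 (-3.51), Tnnt1 (-3.40), Col9a2 (-3.30), Mycn (-2.90), Tgfbi (-2.83), Tmem72 (-2.43), Col11a1 (-2.40), Sfrp1 (-2.25), Aldh1a2 (-1.69), Ncam1 (-1.57), Postn (-1.52), Igfbp5 (-1.32), Grb10 (-1.20), Col12a1 (-1.15) and Prrx1 (-1.09). For 2840 of 17679 genes an arm and stage held no count, so the size of their difference could not be estimated. They were kept among the genes tested.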

How the results depend on the processing

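The 273 higher and 120 lower genes of late against early came to 732 and 539 with no filter on low counts, 87 and 22 with limma on log2(TPM + 1), 629 and 646 with a slope over the 8 days, and 110 and 27 with days 4 to 7 against days 0 to 3. Leaving out 1 library gave 22 to 485 higher and 12 to 270 lower. DESeq2 (308 and 176), its size factors (270 and 127), the joint fit of 24 libraries (311 and 134) and thinned counts (255 and 105) stayed within 1.5 times. The 532 and 270 genes of the difference came to 871 and 459 with no filter, 290 and 114 with limma, 341 and 157 with no day factor, and 149 and 89 with 1 shared late change. Against the arm without Sall4 alone 108 were more positive, and leaving out 1 library gave 255 to 771 more positive and 118 to 437 more negative. In the day slope Klf4 (-0.03 per day) and Hspb1 (-0.03) changed sign, and no other named gene did under the alternatives run. No filter added genes of few counts, and leave-outs had fewer libraries, but the cause of these shifts was not tested. With no filter, 16 of 17 MHC class I genes had a more positive change than the other arms, against 12 of 17 with it. Leaving out 1 library raised the counts in some fits and lowered them in others.

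No paired analysis was possible because the late and early libraries are different days, and the replicate numbers only name them. With 3 libraries a class and no repeated day, a change that missed the threshold is not shown to be absent.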

Other observations

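The genes of the 2-cell embryo appeared briefly. The 14 such genes in the tables summed to 5.92, 128, 42, 1.76, 0, 0, 0.763 and 0.851 CPM on days 0 to 7 without Glis1, and to 5.92 CPM or less in every library of the other arms. Zscan4f, which marks a transient 2-cell-like state of embryonic stem cells, had 0, 0 and 0.43 CPM on days 5, 6 and 7, against 30, 6.01 and 0 CPM on days 1, 2 and 3. Zscan4c had 0 CPM on each late day, against 19, 9.61 and 0 CPM on the early days. Of the 14 genes 1 passed the filter and 0 passed the test, and the Zscan4 genes are near copies whose reads can be split among them. Day 1 and day 2 are the libraries with counts, and no second library of either day exists in this arm.

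Metabolic genes gave single calls. Pdk4, which restrains pyruvate use, had 315, 290.4 and 318 CPM late, against 112, 160.4 and 188 CPM early (1.0 ± 0.18, adjusted p = 0.016). Ldhb, a lactate dehydrogenase gene, had 1786, 1442 and 1293 CPM late, against 2186, 2317 and 2649.6 CPM early (-0.67 ± 0.15, adjusted p = 0.042), and the fatty acid oxidation gene Hadhb fell by 0.59. All of these missed the test without day 2, 5, 6 or 7, and Ldhb and Hadhb also without day 3.

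In each of 5 lists of markers of other lineages 1 gene passed. The tested members were 4 keratinocyte, 6 muscle, 7 endothelial, 7 neural and 3 erythroid genes. Over all genes tested 1.88% were higher late and 0.827% were lower. Ly6d, a keratinocyte surface protein gene with close copies, had 276, 238 and 268 CPM late, against 37, 88.3 and 127 CPM early. On average the muscle gene Ttn had 22.9 CPM late and 7.83 CPM early, the endothelial receptor gene Kdr 60.8 CPM late and 107 CPM early, the neural adhesion gene Ncam1 22.1 CPM late and 64.6 CPM early, and the globin gene Hba-a2 18.9 CPM late and 47.6 CPM early. All 5 genes missed the test without day 2, 6 or 7, Ly6d, Ttn, Kdr and Ncam1 also without day 5, and Hba-a2 also without day 3. Of the adipocyte, germ line and trophoblast markers, 0 of 3, 0 of 3 and 0 of 10 tested passed, and of the DNA methylation, retroviral silencing, and NuRD and Polycomb genes 0 of 13, 0 of 21 and 0 of 22.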
